A study of Rattus norvegicus with 2 samples.

Results

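HSC70, the product of Hspa8, is a constitutive HSP70 chaperone, and the genes described here encode proteins that bind it directly and steer its work. They are the BAG genes Bag1 to Bag6, Stip1 (the protein HOP), St13 (HIP), Stub1 (CHIP) and Hspbp1. The members were chosen by name, as the rows of the expression table that carry these symbols. All 10 were found among the 18049 genes of the table, and all 10 were among the 13518 called measured, whose CPM (estimated counts scaled to a common library total) averaged 1 or more. RNA sequencing was done on wild-type rat oligodendrocyte precursor cells (OPCs), isolated by immunopanning from the cortex of pups at postnatal day 2 to 4. The cells were electroporated either with an siRNA against Hsc70 (siHsc70) or with the control siRNA siSCR. Both cultures were then differentiated with thyroid hormone (T3, 60 nM) after withdrawal of PDGF-AA, bFGF and NT3, and the design text names day 2 of T3. There are 2 libraries, 1 siHsc70 and 1 siSCR, and nothing in the labels says how many pups or cultures each came from. No test between the groups is therefore possible, and the values below describe these 2 libraries.

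HSP70 proteins hold unfolded segments of a client in a cycle driven by ATP. J-domain proteins start hydrolysis and tighten the grip. HIP keeps the ADP-bound, gripping state, and nucleotide exchange factors (among them BAG proteins and HSPBP1) open the lid and let the client go. HOP carries TPR domains, repeats that hold the chaperones' C-terminal tails, and passes clients from HSP70 to HSP90. CHIP uses the same kind of domain but carries a U-box and marks clients with ubiquitin. The balance between these partners is known to decide whether a client is folded, handed on or degraded.

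The siHsc70 library held 18130768 estimated counts and the siSCR library 19085587. The siRNA against Hsc70 given in the labels is tcatgactgtcctcatcaa, 19 bases. Hspa8 was at 471 TPM (a level per transcript length, scaled to the same sum in each library) in siHsc70 and at 1431 TPM in siSCR. All 5 OPC markers, all 5 markers of newly formed oligodendrocytes and all 6 markers of myelinating oligodendrocytes were measured. That label rests on the average of both libraries. The summed levels of these groups were 1978, 419 and 1001 CPM in siHsc70, against 3166, 2634 and 5118 CPM in siSCR. The labelled cell type was thus visible in both libraries. Ptprz1 alone held 1630 CPM of the OPC sum in siHsc70 and 2059 CPM in siSCR. Mobp, a myelinating marker, was at 0.556 CPM in siHsc70 and 4.57 CPM in siSCR. Mog, of the same group, hardly differed, at 10.5 CPM in siHsc70 and 10.6 CPM in siSCR. Astrocyte markers (6 of 6 measured) summed to 2849 CPM in siHsc70 and 3488 CPM in siSCR, with Gfap, Aqp4 and Aldoc lower and Aldh1l1 and S100b higher in siHsc70, as was Slc1a3 by CPM but not by TPM. Neuronal markers (6 of 6) summed to 140 CPM in siHsc70 and 156 CPM in siSCR. Of these, Snap25, Stmn2 and Tubb3 were higher in siHsc70, and Dcx, Syt1 and Rbfox3 were lower. The 6 fibroblast or mural markers, 3 of them measured, summed to 98.9 CPM in siHsc70 and 38.4 CPM in siSCR. Of these sums Col1a1 alone held 73.8 CPM in siHsc70 and 24.3 CPM in siSCR. Microglial and endothelial sums lay between 2.86 and 8.42 CPM. The table holds no gene at 0 in both libraries, and the microglial markers Cx3cr1 and Itgam and the endothelial marker Cldn5 had no row. The part of these marker differences in the cochaperone values was not tested, and in bulk RNA fewer cells of a type and less RNA per cell cannot be told apart.

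The cochaperone transcripts differed modestly between the libraries, and most were higher in siHsc70. Bag3, Bag2 and Hspbp1 stood highest, at ratios of siHsc70 to siSCR between 1.54 and 1.65. Stip1, Bag1 and St13 followed at 1.44, 1.36 and 1.30. Bag5 and Stub1 were nearer to 1, and Bag6 and Bag4 were slightly lower in siHsc70, Bag6 not under upper-quartile scaling. On the log2(CPM + 1) scale, siHsc70 minus siSCR, the 10 members had a median difference of 0.40, beside -0.0034 for all measured genes. A difference of at least 1 on that scale (2-fold) was reached by 0 of 10 members in either direction, where 2.29% of all measured genes were at least 2-fold higher and 5.14% at least 2-fold lower. At 1.5-fold, 3 of 10 members were higher, where 9.65% of all measured genes were, and 0 of 10 were lower, where 12% were. By any amount 8 of 10 were higher, against 49.7% of all genes, and 2 of 10 lower, against 50.3%. With TPM 7 were higher and under upper-quartile scaling 9, where the medians of all measured genes were -0.13 and 0.055. The shares of all genes that were higher were not counted for these settings. In both, 8 of 10 members lay above the median gene. Ratios of normalised counts carry 95% exact (Clopper-Pearson) counting intervals, which were above 1 for 8 of 10 members and for 32.5% of all measured genes. They were below 1 for 0 of 10 members and for 33.8% of all genes. These shares also depend on depth, since all genes include those averaging as little as 1 CPM, where intervals are wide. Such intervals reflect the number of reads alone: they say nothing of how cultures vary, and copies made by PCR count as separate reads.

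**Figure D1:**
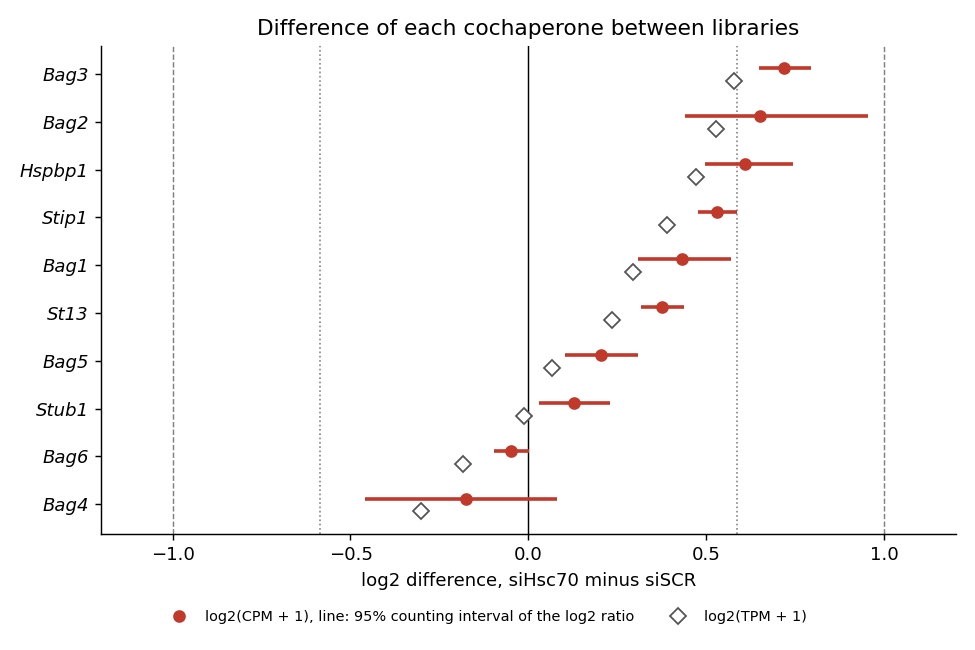
Difference of each of the 10 cochaperone genes, siHsc70 minus siSCR, on the log2 scale. Filled circles are log2(CPM + 1) differences with the 95% counting interval of the log2 ratio as a line, and open diamonds are the same genes from the deposited TPM. Dotted lines mark 1.5-fold and dashed lines 2-fold. Bag3 lies at 0.72 and Bag4 at -0.17, and each diamond lies left of its circle.

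Bag3 encodes the exchange factor that links HSP70 to small heat shock proteins and to selective autophagy. It was at 216 CPM in siHsc70 and at 131 CPM in siSCR, a ratio of 1.65 (counting interval 1.57 to 1.73) from 3880 estimated counts in siHsc70 and 2518 in siSCR. Its difference of 0.72 was the highest of the members, and 887 of the 13518 measured genes (6.56%) had a difference at least as high. Bag2 encodes an exchange factor known as an inhibitor of CHIP. It was at 17.8 CPM in siHsc70 and 11.02 CPM in siSCR, a ratio of 1.62 (1.36 to 1.94) that rests on 321 counts in siHsc70 and 212 in siSCR. Hspbp1 encodes an exchange factor of another fold, which also restrains CHIP when bound to HSC70. It was at 73.2 CPM in siHsc70 and 47.7 CPM in siSCR, a ratio of 1.54 (1.41 to 1.67). These are the 3 members past 1.5-fold, with differences of 0.72, 0.65 and 0.61. Stip1, the highest member inside that limit, was at 0.53, or past it at 0.59 under upper-quartile scaling. The bases before the RefSeq gene start of these 4 genes are shown because they had the highest differences and because heat shock factors bind repeated blocks of nGAAn in such regions. The stretches are from build GRCr8 and run 5′ to 3′ on the gene's strand, and capitals mark a block pair spaced as GAANNTTC or TTCNNGAA. Bag3 is chr1:192533210-192533459 on the plus strand, Bag2 is chr9:43476638-43476887 on the minus strand, Hspbp1 is chr1:78194168-78194417 on the plus strand and Stip1 is chr1:213657655-213657904 on the minus strand.
Bag3: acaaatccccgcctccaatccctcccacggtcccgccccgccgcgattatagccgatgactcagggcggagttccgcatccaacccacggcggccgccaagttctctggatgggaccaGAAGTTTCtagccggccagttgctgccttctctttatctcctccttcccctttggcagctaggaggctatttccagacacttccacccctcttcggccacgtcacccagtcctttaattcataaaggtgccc
Bag2: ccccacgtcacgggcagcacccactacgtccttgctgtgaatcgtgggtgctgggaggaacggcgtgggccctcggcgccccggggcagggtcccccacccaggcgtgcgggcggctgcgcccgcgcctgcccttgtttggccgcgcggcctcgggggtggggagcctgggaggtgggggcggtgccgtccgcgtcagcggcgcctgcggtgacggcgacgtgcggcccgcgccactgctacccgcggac
Hspbp1: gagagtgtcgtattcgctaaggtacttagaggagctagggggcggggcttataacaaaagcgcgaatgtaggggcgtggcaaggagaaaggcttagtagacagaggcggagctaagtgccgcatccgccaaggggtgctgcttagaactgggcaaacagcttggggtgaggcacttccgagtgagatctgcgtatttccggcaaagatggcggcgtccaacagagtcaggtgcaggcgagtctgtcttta
Stip1: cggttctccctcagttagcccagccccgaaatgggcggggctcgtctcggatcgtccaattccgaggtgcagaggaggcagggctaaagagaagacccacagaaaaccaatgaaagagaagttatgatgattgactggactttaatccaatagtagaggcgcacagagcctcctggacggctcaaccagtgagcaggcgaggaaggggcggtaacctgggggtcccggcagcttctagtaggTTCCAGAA

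Both strands of the RefSeq promoter windows (250 bases before to 50 after the gene start) were searched for these letters. A window was given for 8 of the 10 members, with 2 for Bag6, and Bag4 and St13 had none. Bag3 holds GAAGTTTC at bases -132 to -125 and Stip1 holds TTCCAGAA at bases -8 to -1, counted back from the gene start. The windows of Bag1, Bag2, Bag5, Bag6, Hspbp1 and Stub1 hold neither pair. Over all 33469 windows, 15.9% hold at least 1 of these pairs. The longer heat shock element of 3 blocks at the same spacing, which contains both pairs, was in 0 of 8 member genes and in 0.798% of all windows. Among the genes listed as heat shock factors or their response genes, 14 had a window, of which 10 hold a pair and 5 a 3-block element. Tcp1, Ahsa1, Hspa1a and Hsf2 hold no pair in their windows, and Hspa1a had the highest difference of that list. Bases outside the windows were not searched, for these genes or for the members. The windows of Hspd1 and Hspe1, which start on opposite strands, overlap, and the same bases are counted for both. A match describes letters and is not evidence of binding. The windows of the members hold 58% to 76.7% G and C, beside a median of 51.7% over all windows (quartiles 44.7% and 60.3%). Those of Hspbp1 and Stip1, at 58%, and 1 of Bag6, at 59.7%, lie inside the quartiles. Bag3 lies at the upper quartile. The windows of the heat shock factor and response genes span 49.3% (Hspa4l) to 76.3% (Hspd1).

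**Figure D2:**
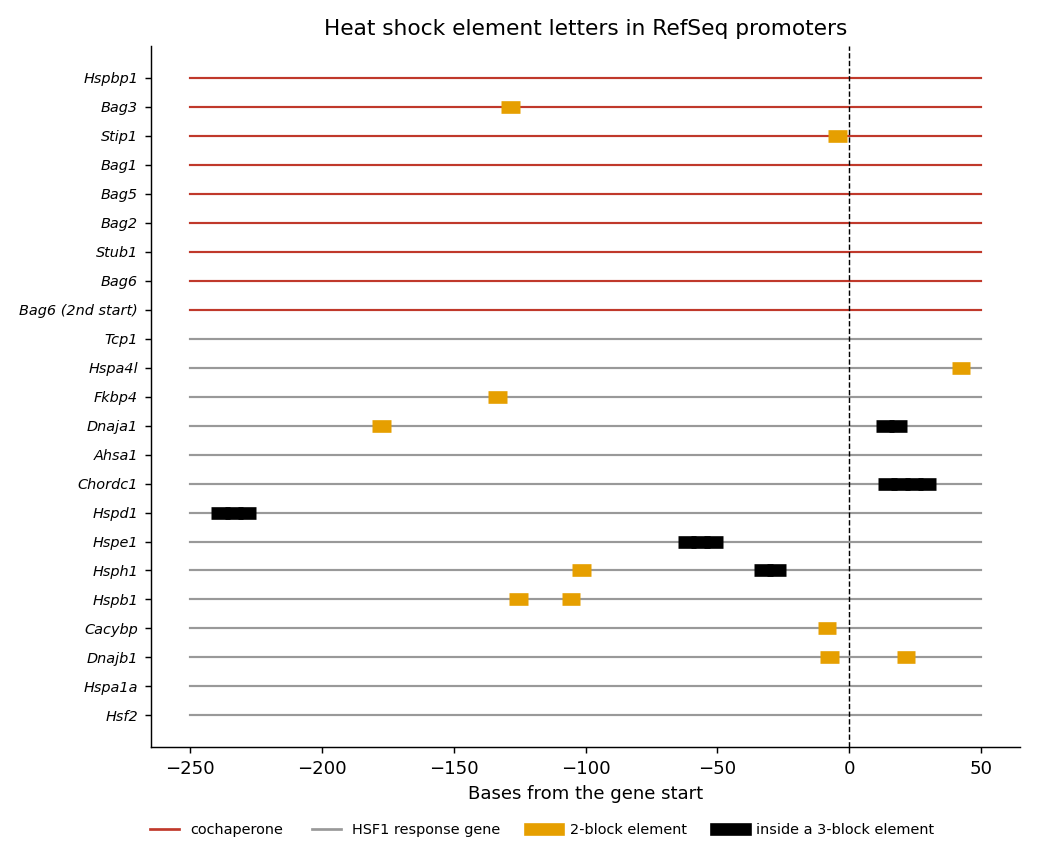
Position of heat shock element letters in RefSeq promoter windows, in bases from the gene start (dashed line). Red lines are windows of the cochaperones and grey lines those of the heat shock factor and response genes. Orange blocks are 2-block pairs and black blocks are pairs inside a 3-block element. Of the red lines, Bag3 and Stip1 carry 1 pair each.

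Bag1, whose protein carries a ubiquitin-like domain that ties HSC70 to the proteasome, was at 60.1 CPM in siHsc70 and 44.3 CPM in siSCR, a ratio of 1.36 (1.24 to 1.48). Bag5, whose protein has several BAG domains and is known to restrain the ubiquitin ligase parkin, was at 89.9 CPM in siHsc70 and 77.9 CPM in siSCR, a ratio of 1.15 (1.07 to 1.24). In CPM both were higher in siHsc70 by more than counting error. With TPM the difference of Bag5 was 0.065 in place of 0.20, and its counting intervals in the 2 libraries overlapped. Bag6 encodes a holding protein that shields tail-anchored and mislocalised proteins. It was at 353 CPM in siHsc70 and 365 CPM in siSCR, a ratio of 0.967 whose interval, 0.934 to 1.00, reaches 1. Its difference was -0.049, and it was 0.014 under upper-quartile scaling and -0.18 with TPM, where its counting intervals in the 2 libraries did not overlap. Bag4, whose protein (SODD) binds the death domain of the TNF receptor TNFR1, was the least abundant member by TPM. By CPM this held in siHsc70, whereas in siSCR Bag2 was lower. Bag4 was at 11.7 CPM in siHsc70 and 13.3 CPM in siSCR, from 210.32 estimated counts in siHsc70 and 256.33 in siSCR. The ratio of 0.878 has an interval of 0.728 to 1.06, so a difference was not detectable at this depth.

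Stip1, the adapter between HSP70 and HSP90, was at 358 CPM in siHsc70 and 248 CPM in siSCR, a ratio of 1.44 (1.39 to 1.5). St13, which stabilises the gripping state, was at 272 CPM in siHsc70 and 209 CPM in siSCR, a ratio of 1.30 (1.25 to 1.35). Both TPR cochaperones were higher in siHsc70, Stip1 more than St13. RefSeq names 10 pseudogenes of St13 and 1 of Stip1, none of which has a row in the table. How reads of such copies were assigned is not given in the sources used here, so the St13 level is uncertain. Stub1, encoding the ligase CHIP, was at 93.5 CPM in siHsc70 and 85.5 CPM in siSCR, a ratio of 1.09 (1.02 to 1.17). It is the member whose direction depends on the unit, with a difference of 0.13 from CPM and -0.012 from the deposited TPM.

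The deposited TPM values shift all genes: their median difference over the measured genes was -0.13. With TPM the members' median was 0.27, and 0 of 10 were at least 1.5-fold higher, where 6.42% of all measured genes were. Measured from the median gene of each setting, 8 of 10 members lay above it and 3 lay at least 1.5-fold above it, both with CPM and with TPM. The shares of all genes at least 1.5-fold above the median gene were 9.71% with CPM and 10.1% with TPM. The quantified transcript length, estimated count over FPKM, was nearly the same in both libraries for every member. Its ratio of siHsc70 to siSCR was between 0.996 and 1.00 for the 10 members, where the central 95% of 9129 genes with an FPKM of at least 5 in both libraries spanned 0.956 to 1.04.

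Levels between genes were compared as TPM. In siHsc70 the order was Stip1 (334 TPM), St13 (321), Bag6 (184), Bag3 (180), Stub1 (146), Hspbp1 (97.0), Bag1 (90.9), Bag5 (87.0), Bag2 (22.9) and Bag4 (10.5). In siSCR it was St13 (272 TPM), Stip1 (255), Bag6 (210), Stub1 (147), Bag3 (121), Bag5 (83.1), Bag1 (73.9), Hspbp1 (69.6), Bag2 (15.6) and Bag4 (13.2). Bag3 stood above Stub1 in siHsc70 and below it in siSCR, in each case without overlap of the counting intervals. In siHsc70 the intervals of Stip1 and St13 overlapped, as did those of Bag6 and Bag3, of Hspbp1 and Bag1, and of Bag1 and Bag5. In siSCR those of Bag5 and Bag1, of Bag1 and Hspbp1, and of Bag2 and Bag4 overlapped. Of the summed TPM of the 6 BAG genes, Bag3 made up 31.3% in siHsc70 and 23.4% in siSCR. The share of Bag6 was 32.0% in siHsc70 and 40.6% in siSCR, and the other shares moved by less than 2 percentage points.

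**Figure D3:**
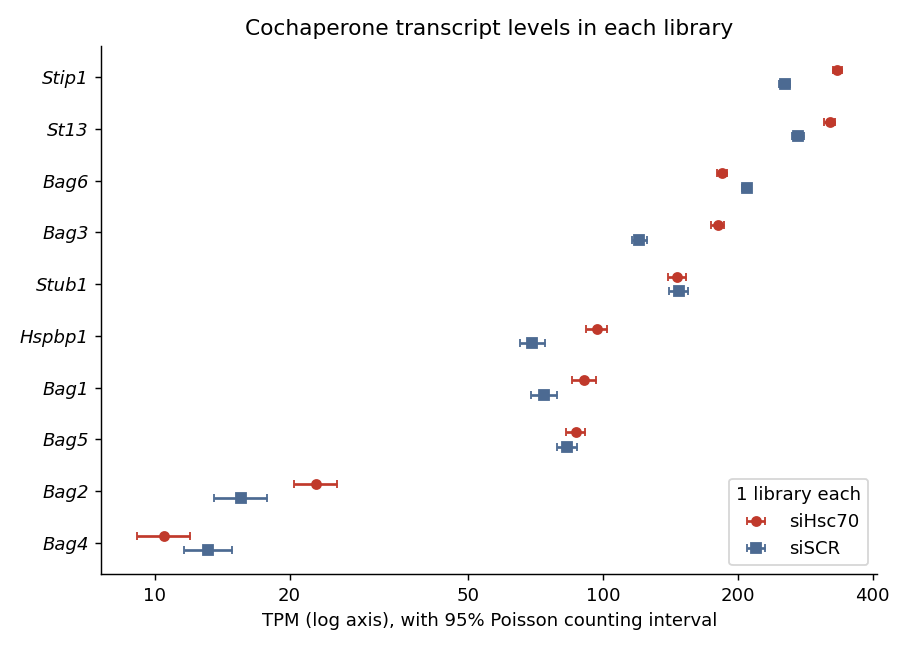
Level of the 10 cochaperone transcripts in TPM on a log axis, 1 library per group, with 95% Poisson counting intervals. Red circles are siHsc70 and blue squares are siSCR. Stip1 and St13 lie highest, between 255 and 334 TPM, and Bag4 lies lowest.

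Ratios between members within 1 library do not depend on how the libraries are scaled. The 7 pairs below were chosen after the values had been seen, and their intervals are exact conditional intervals from the counts, for counting error only. Bag3 and Bag1 encode exchange factors known for opposite routes of disposal, autophagy and the proteasome. There were 1.98 TPM of Bag3 per TPM of Bag1 in siHsc70 and 1.63 in siSCR, a 1.22-fold difference (1.10 to 1.35). Per TPM of Bag6 there were 0.977 TPM of Bag3 in siHsc70 and 0.575 in siSCR, 1.71-fold apart (1.60 to 1.81). Bag3 was thus higher relative to both. HOP and CHIP compete for the tails of HSP70 and HSP90. Stip1 was at 2.28 TPM per TPM of Stub1 in siHsc70 and 1.73 in siSCR, a 1.32-fold difference (1.22 to 1.43). The transcripts of both CHIP inhibitors were higher relative to Stub1 as well. Hspbp1 per Stub1 was 0.663 in siHsc70 and 0.472 in siSCR, a 1.40-fold difference (1.26 to 1.57). Bag2 per Stub1 was 0.157 in siHsc70 and 0.106 in siSCR, 1.48-fold apart (1.22 to 1.79). HIP and BAG1 act on the HSC70 ATPase domain in opposite ways, and their transcripts kept a similar ratio. St13 per Bag1 was 3.53 in siHsc70 and 3.69 in siSCR, a ratio of 0.958 between libraries whose interval, 0.866 to 1.06, includes 1. St13 per Stip1 was 0.962 in siHsc70 and 1.07 in siSCR, a ratio of 0.899 (0.850 to 0.951).

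The cochaperones were also set against HSP70 itself. The HSP70 sum used here is Hspa8 with its near-identical pseudogene row Hspa8-ps25 and the inducible genes Hspa1a and Hspa1b. How reads of such near-identical rows were divided is not known here. It came to 1165 TPM in siHsc70 and 2399 TPM in siSCR. Within it, Hspa1a and Hspa1b together held 377 TPM in siHsc70 and 43.5 TPM in siSCR. The 10 cochaperones summed to 1474 TPM in siHsc70 and 1260 TPM in siSCR. That is 1.26 TPM of cochaperone per TPM of HSP70 in siHsc70 and 0.525 in siSCR, a 2.41-fold difference (2.35 to 2.47, Poisson counting error by the delta method). Since Hspa8 was the target of the siRNA, the lower HSP70 sum enters this ratio by design. A gene with equal TPM in both libraries would differ by 2.06-fold, and 91.9% of all measured genes were higher per TPM of HSP70 in siHsc70. The direction is therefore no result about the cochaperones. A fold above 2.06 only restates a higher TPM in siHsc70, which 7 of 10 members had. The share of all genes above 2.06-fold was not counted. Per 100 TPM of HSP70, Bag3 was at 15.5 TPM in siHsc70 and 5.02 TPM in siSCR, 3.08-fold apart, the widest of the members. Bag4 was at 0.900 TPM in siHsc70 and 0.549 TPM in siSCR, 1.64-fold apart, the narrowest. Against Hspa8 alone the summed members were 3.13 per TPM in siHsc70 and 0.880 in siSCR, and without the pseudogene row the fold was 2.03.

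**Figure D4:**
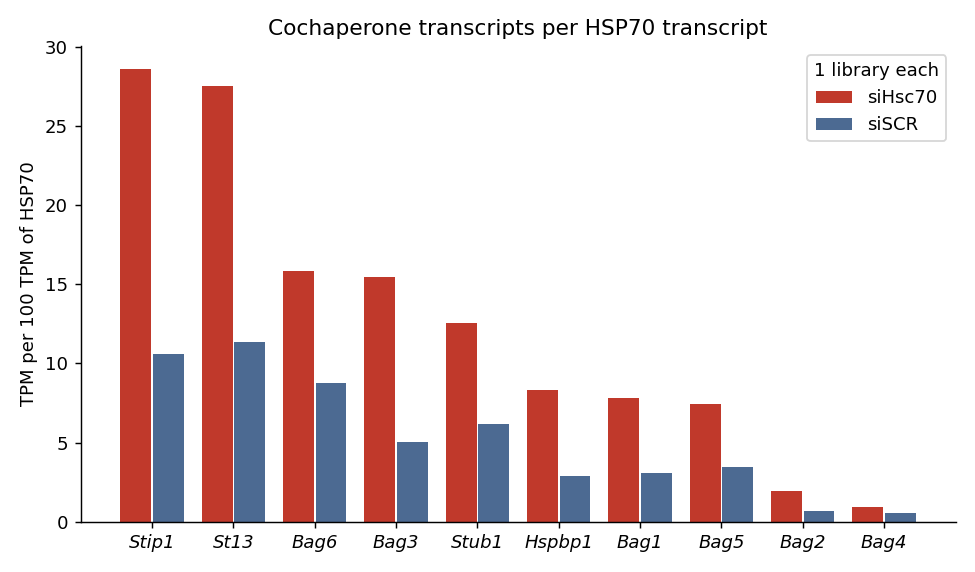
TPM of each cochaperone per 100 TPM of HSP70 (Hspa8, Hspa8-ps25, Hspa1a and Hspa1b), 1 library per group, with siHsc70 in red and siSCR in blue. Stip1 reaches 28.6 in siHsc70 and 10.6 in siSCR, and a gene with equal TPM in both libraries would have a siHsc70 bar 2.06 times as high.

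The genes around these cochaperones were taken as 10 lists of 106 different genes, 105 of them measured, and some genes stand in more than 1 list. Exchange factors outside the BAG family had a median close to that of the members. Of 7 measured, 1 was at least 2-fold higher and 0 were lower, with a median of 0.37. That gene, Hsph1, encodes the HSP110 exchange factor and was at 324 CPM in siHsc70 and 107 CPM in siSCR, a ratio of 3.04 (2.89 to 3.19). Of 10 J-domain genes of classes A and B, 2 were at least 2-fold higher and 0 lower, with a median of 0.46. Dnaja1 was at 645 CPM in siHsc70 and 244 CPM in siSCR, and Dnajb1 at 156 CPM in siHsc70 and 64.7 CPM in siSCR. Of 9 HSP70 genes, 3 were at least 2-fold higher and 1 lower, with a median of 0.47. Hspa1a was at 24.1 CPM in siHsc70 and 1.56 CPM in siSCR, and Hspa1b at 395 CPM in siHsc70 and 42.2 CPM in siSCR. The third higher gene is Hspa2, and the lower gene is Hspa8.

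HSP90, to which HOP hands clients, was higher in siHsc70. Of 12 measured genes of HSP90 and its cochaperones without a TPR domain, 1 was at least 2-fold higher and 0 lower, with a median of 0.46. Hsp90aa1, the inducible HSP90, was at 2292 CPM in siHsc70 and 801 CPM in siSCR, a ratio of 2.86 (2.81 to 2.92). Hsp90ab1, the constitutive HSP90, was picked out once the values were known, at 3661 CPM in siHsc70 and 1884 CPM in siSCR, a difference of 0.96. The other 14 TPR cochaperones lay nearer to 0. None was past 2-fold in either direction (Sgtb was with TPM, at -1.02), and their median of 0.094 was -0.044 with TPM. The furthest from 0 was Sgtb, a brain-enriched relative of the cochaperone Sgta, at 27.8 CPM in siHsc70 and 51.3 CPM in siSCR, a ratio of 0.542 (0.486 to 0.604).

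The BAG3 list, of small heat shock proteins and selective autophagy, had 3 of 15 genes at least 2-fold higher and 0 lower, with a median of 0.23, or 0.088 with TPM. Hspb1 was at 267 CPM in siHsc70 and 32.9 CPM in siSCR, and Cryab at 95.7 CPM in siHsc70 and 18.8 CPM in siSCR. The remaining one, Hspb8, encodes the small heat shock protein that pairs with BAG3. Picked out once the values were known, it was at 108 CPM in siHsc70 and 40.2 CPM in siSCR. The 13 CHIP partners and other U-box ligases had 0 genes past 2-fold in either direction and a median of -0.040, which was 0.022 under upper-quartile scaling. Their furthest member was the ubiquitin-conjugating enzyme gene Ube2e1, at 105 CPM in siHsc70 and 82.1 CPM in siSCR. The 11 BAG6 partners likewise had 0 past 2-fold and a median of -0.049, or 0.012 under upper-quartile scaling. Get1, encoding an endoplasmic reticulum receptor for tail-anchored proteins, was furthest from 0, at 59.2 CPM in siHsc70 and 82.3 CPM in siSCR. The partners of BAG1, BAG4 and BAG5 (9 measured) had 0 past 2-fold and a median of 0.23, or 0.093 with TPM. Ppp1r15a, whose stress-induced product GADD34 binds BAG1, was furthest from 0, at 335 CPM in siHsc70 and 185 CPM in siSCR.

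The heat shock factors and their response genes, of which no member was counted, had the highest median. Of 19 measured, 8 were at least 2-fold higher and 0 lower, and the median was 0.69. These 8 are Hspa1a, Hspa1b, Hsph1, Hspb1, Cryab, Dnaja1, Dnajb1 and Hsp90aa1. Each was already counted in a list above, so this count adds no new gene. The transcript of Hsf1, the factor that drives this response, was named after its values were seen. It was at 51.8 CPM in siHsc70 and 48.6 CPM in siSCR, a ratio of 1.07 whose interval, 0.972 to 1.17, includes 1. With TPM the medians of the chaperone lists were 0.33 for the HSP70 and for the J-domain genes, 0.23 for the exchange factors, 0.34 for the HSP90 genes and 0.56 for the response genes. The CHIP and BAG6 lists were then at -0.18 and -0.19, near the shift of -0.13 of all genes.

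**Figure D5:**
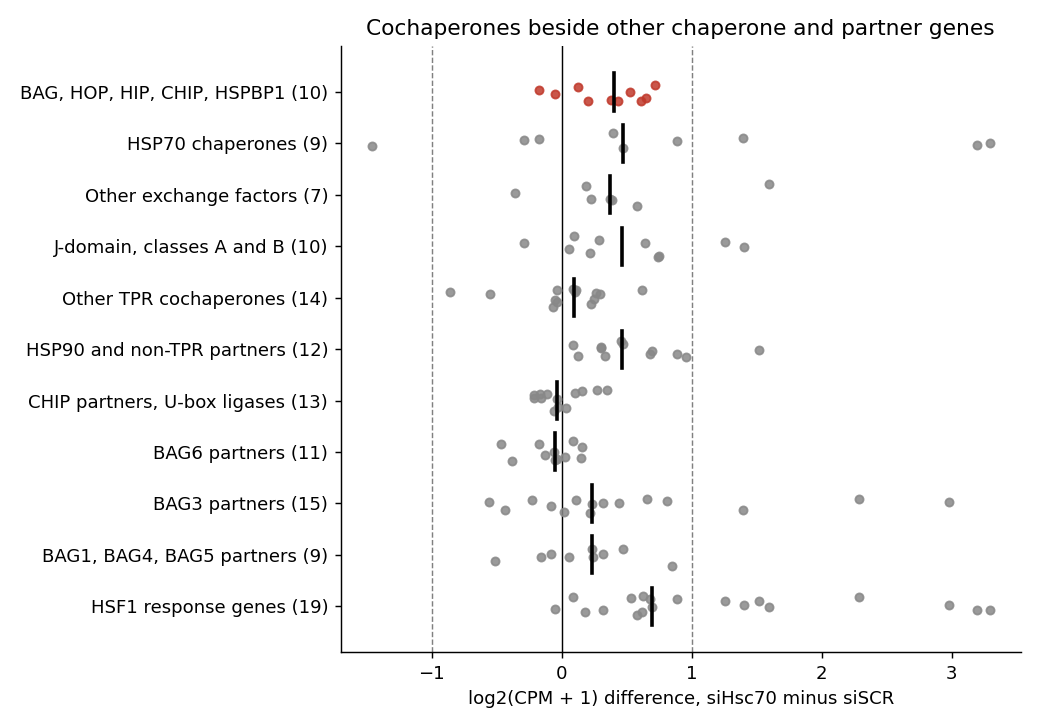
log2(CPM + 1) differences, siHsc70 minus siSCR, of the measured genes of each list (number in brackets). Red points are the 10 cochaperones, grey points are genes of the other lists, black bars are medians and dashed lines mark 2-fold. The 10 cochaperones lie between -0.17 and 0.72, inside both dashed lines.

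Over both libraries, the genes nearest to Bag3 in difference and in log2 mean level were Mat2a, Lamb2 and Ptpn13, at Euclidean distances of 0.035, 0.037 and 0.062. Mat2a encodes a methionine adenosyltransferase and was at 221 CPM in siHsc70 and 134 CPM in siSCR. Lamb2 encodes a laminin chain and was at 215 CPM in siHsc70 and 127 CPM in siSCR. Ptpn13 encodes a tyrosine phosphatase and was at 209 CPM in siHsc70 and 132 CPM in siSCR. With 1 library per group, this likeness says only that the values lie close together.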

How the data were processed

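RNA of 2 rat libraries, 1 siHsc70 and 1 siSCR, was analysed from 1 table of the whole series with 6 value columns. Columns were matched to samples through the siRNA they name. The table's read counts are taken as the authors' estimated counts, not normalised, per the file headers and the values; 26.7% of the siHsc70 values and 26.5% of the siSCR values are not whole. The deposited FPKM values are scaled for length and library size, and the deposited TPM values for length to a common total, per the file headers. For the aligner, quantification program and strand setting, the entry is: not given in the sources used here. A mouse build, mm39, is named in the submitters' processing notes, whereas the gene IDs are rat: 16783 of 18049 were found in RefSeq for GRCr8. No gene coordinates are given, and promoter coordinates are those of RefSeq on GRCr8. Numeric and LOC symbols were replaced by the RefSeq symbol of their gene ID.

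The counts were rounded and scaled to CPM by edgeR's TMM method (edgeR 4.0.16, R 4.3.3, factors 0.992 for siHsc70, 1.01 for siSCR). The label measured needs an average of 1 CPM or more. Differences are log2(CPM + 1), siHsc70 minus siSCR, with a pseudocount of 1, so that changes of low genes are understated, and a limit of 2-fold or 1.5-fold is a rule of size on this scale. Ratios are of normalised counts without the pseudocount, with Clopper-Pearson intervals (95%) from scipy 1.17.1. A count of 0 allows up to 3 counts, or 0.167 CPM in siHsc70 and 0.156 CPM in siSCR. With 1 library per group no p-value is given. The members, the gene lists, the limits and the alternatives were chosen with earlier results of these data known. The rule for named genes took all members and Hspa8, from each list up to 2 higher and 2 lower genes past 2-fold or else the gene furthest from 0, and the 3 genes nearest to Bag3 among those averaging 10 CPM or more. The procedure was tested on simulated Poisson counts for siHsc70 against siSCR over 13515 genes. The intervals held the true ratio for 95.6% of the 13315 unchanged genes. Of 50 genes in each changed set they held it for 96% of those made 1.5-fold higher and 98% of those made 3-fold higher, and for 100% and 86% of those made lower by the same folds. Of the genes changed 3-fold, 96% of the higher and 84% of the lower passed the 2-fold limit. Alternatives were other pseudocounts, minimum means and scalings (DESeq2 1.42.0 size factors among them), the deposited TPM and FPKM, and the addition of pseudogene rows.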

Additional observations from a re-analysis of the deposited data

How the results depend on the processing

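The 10 alternatives were run for each member difference, and 89 of the 100 values lay within the counting interval of the reported one. Of the other 11, 8 came with the deposited TPM and 3 with upper-quartile scaling. The 89 include values that could not change. A minimum mean leaves a member's difference as it is, and no member had a pseudogene row to add. Signs changed for Stub1 (-0.012 with TPM) and Bag6 (0.014 with upper-quartile scaling), both of which were small to begin with. Bag3 ranged from 0.58 to 0.78 over all settings, Bag2 from 0.51 to 0.71 and Hspbp1 from 0.47 to 0.67. The members at least 1.5-fold higher numbered 1 with a pseudocount of 5, where 5.43% of all measured genes were. With TPM, where the whole distribution moves, they numbered 0, beside 6.84% of the genes averaging 1 TPM or more. With FPKM they numbered 2, beside 7.83% of the genes averaging 1 FPKM or more. Under upper-quartile scaling, where Stip1 was at 0.59, they numbered 4, beside 11.3% of all measured genes. The members' median was 0.27 with TPM. Hspa8, at -1.46, was at -1.40 with upper-quartile scaling and -1.60 with TPM. Over all measured genes, those past 2-fold upwards numbered 518 with a pseudocount of 0.1, 132 with a pseudocount of 5 and 203 with FPKM, against 310. The count at least 2-fold lower was 417 with a pseudocount of 5, against 695. For the summed members per HSP70, alternatives chosen after seeing the data gave 2.03-fold without the pseudogene row, 3.56-fold against Hspa8 alone and 2.28-fold with Hspa2 and Hspa1l added, against 2.41-fold. No paired analysis was possible because each group has 1 library, and no library could be left out for the same reason. Depth limits Bag4 and Bag2 most, with 210.32 to 321 counts per library.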

Other observations

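Genes of the partner lists that were lower in siHsc70 were named after their values were seen. Dnajc7, encoding a J-domain protein that also carries TPR domains, was at 137 CPM in siHsc70 and 202 CPM in siSCR, a ratio of 0.679 (counting interval 0.646 to 0.715). Tsc1, whose product restrains mTORC1 and which stands in the BAG3 list, was at 38.3 CPM in siHsc70 and 56.9 CPM in siSCR, a ratio of 0.673 (0.611 to 0.741). Lats1, encoding a kinase of the Hippo pathway and in the same list, was at 91.5 CPM in siHsc70 and 124 CPM in siSCR. Ubl4a, encoding a BAG6 partner, was at 25.5 CPM in siHsc70 and 33.5 CPM in siSCR, a ratio of 0.761 (0.674 to 0.859).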
